A study of Mus musculus with 16 samples.

Results

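The genes described here are the 10 mouse genes Ulk1, Ulk2, Rb1cc1, Atg13, Atg9a, Atg9b, Atg2b, Wipi1, Wipi2 and Wdr45, which act at the start of autophagy. They were chosen by name from the 54052 gene entries of the count table, and all 10 were found and passed the filter on low counts. The libraries come from ES-E14TG2a, a mouse embryonic stem cell line whose genotype tag reads WT, carrying a short hairpin named shBeclin1 or a hairpin named shNT, taken here as the control. Each hairpin was sampled as stem cells at day 0, as embryoid bodies at day 4, at day 10 in a culture labelled CM, and at day 10 in a culture labelled CM without GF. That gives 8 groups of 2 libraries. The labels do not expand GF or NT, do not say whether a hairpin population is a clone, and do not say that replicates were separate cultures, so p-values measure the spread between these libraries, which may be technical. Below, day 10 CM and day 10 without GF name the 2 late cultures.

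Autophagy encloses cytoplasm in a double membrane and delivers it to lysosomes. It starts when a kinase complex of ULK1 or its relative ULK2 with the scaffold RB1CC1 (also called FIP200) and the adaptor ATG13 is activated, which lets vesicles carrying the lipid scramblase ATG9 seed a new membrane. The lipid kinase complex that contains Beclin1, the product of Becn1, then marks this membrane with phosphatidylinositol 3-phosphate. The WIPI proteins WIPI1, WIPI2 and WDR45 (also called WIPI4) bind that lipid, and ATG2 proteins, with which WDR45 interacts, feed lipid into the growing membrane. In embryonic stem cells and heart muscle this pathway is known for turnover of organelles, mitochondria among them.

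The 3 genes whose levels ranged most widely over the groups were Wipi1, Ulk2 and Ulk1, and their promoter windows are shown because Wipi1 and Ulk2 took courses opposite to that of Ulk1 at day 10. Each is 300 bases of GRCm38.p6 placed around the gene start that RefSeq gives, read 5′ to 3′ on the strand of the gene. Against the outermost start of the GENCODE vM21 gene model, the Ulk1 window begins 234 bases upstream and the Ulk2 window 269 bases upstream, whereas the Wipi1 window lies wholly inside the gene model, 328 to 627 bases past its start. Capitals mark GGGCGG or its complement CCGCCC, the core of the GC box.
Wipi1 promoter, chr11:109611340-109611639, minus strand: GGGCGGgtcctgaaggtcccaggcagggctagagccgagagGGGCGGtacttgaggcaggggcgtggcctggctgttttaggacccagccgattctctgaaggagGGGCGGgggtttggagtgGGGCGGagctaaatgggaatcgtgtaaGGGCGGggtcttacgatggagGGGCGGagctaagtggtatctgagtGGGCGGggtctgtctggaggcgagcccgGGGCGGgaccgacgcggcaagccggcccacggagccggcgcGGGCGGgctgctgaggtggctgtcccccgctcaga
Ulk2 promoter, chr11:61855043-61855342, minus strand: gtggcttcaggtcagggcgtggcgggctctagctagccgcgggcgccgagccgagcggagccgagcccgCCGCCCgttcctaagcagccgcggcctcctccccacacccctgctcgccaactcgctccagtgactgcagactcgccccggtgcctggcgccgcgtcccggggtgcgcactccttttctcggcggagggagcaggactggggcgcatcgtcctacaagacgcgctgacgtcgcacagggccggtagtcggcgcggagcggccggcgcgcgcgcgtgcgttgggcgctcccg
Ulk1 promoter, chr5:110810032-110810331, minus strand: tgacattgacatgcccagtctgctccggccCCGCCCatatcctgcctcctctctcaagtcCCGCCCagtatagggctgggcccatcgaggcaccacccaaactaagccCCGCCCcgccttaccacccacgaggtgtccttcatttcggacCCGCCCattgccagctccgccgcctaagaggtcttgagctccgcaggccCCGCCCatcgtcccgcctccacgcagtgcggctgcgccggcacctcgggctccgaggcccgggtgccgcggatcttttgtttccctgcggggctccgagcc
GGGCGG occurred 9 times in the Wipi1 window, 5 times in that of Ulk1 and 1 time in that of Ulk2, counting both strands. Of 32851 promoters of the same length, 0.0426% held at least 9 matches, 2.07% at least 5 and 35.7% at least 1. Windows were found for 9 of the 10 genes, all but Rb1cc1. Those of Wipi2 and Wdr45 also lie inside the gene model, from 1636 and 8344 bases past its start, so for these genes and Wipi1 the letters upstream of the outermost start were not searched. None of the 9 windows held CACGTG (7.15% of promoters), its longer form TCACGTGA (0.974%), which is the core of the element bound by TFEB, or GTAAACA (3.65%), a forkhead motif. CCAAT was found 3 times in the Atg9a window and 1 time each in those of Atg9b and Wdr45 (37.4% of promoters hold it). Both strands were searched, TCACGTGA contains CACGTG, and GGGCGG and CCAAT were added after the other motifs had been seen to be absent.

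Total counts were 14967744 to 21422980 per library. Becn1, the target of the hairpin, stood in shBeclin1 libraries at 0.437 of its shNT level at day 0, 0.498 at day 4, 0.621 at day 10 CM and 0.708 at day 10 without GF (edgeR quasi-likelihood test, adjusted p = 2.42e-13, 6.23e-13, 1.77e-09 and 5.17e-07). Exons of Cntd1, at 0.664 to 5.59 CPM, overlap 43.9% of the Becn1 exon length on the opposite strand. Against shNT, Cntd1 with shBeclin1 was at log2 -0.41 at day 0, -0.74 at day 4, -0.54 at day 10 CM and -0.72 without GF. Only the last of these was called. The part of Cntd1 reads in the Becn1 counts was not tested. The batch tag names each group, which means that group and batch cannot be told apart. Libraries labelled mouse cardiomyocyte differed in cardiomyocyte markers by hairpin. The summed level of 8 such markers was 3940 to 4350 CPM in shBeclin1 against 54.2 to 61.8 CPM in shNT libraries at day 10 CM, and 2690 to 5210 CPM in shBeclin1 against 51.5 to 57 CPM in shNT libraries without GF, where 1 of the 8 was at 0 in both shNT libraries. At day 0 the same sum was 25.2 to 27.4 CPM in shBeclin1 and 18.5 to 27.9 CPM in shNT libraries, so the shNT libraries of day 10 were above those of day 0 for the markers of their label, but far below the shBeclin1 libraries of day 10. In such bulk samples, fewer cells of a type and less RNA per cell cannot be told apart.

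All 10 genes differed somewhere among the 8 groups by the edgeR quasi-likelihood test, with adjusted p from 3.55e-30 for Ulk1 to 1.08e-05 for Atg9b, against 95.6% of the 19141 genes tested. The ratio of the highest to the lowest group mean was 8.74 for Wipi1, 6.71 for Ulk2, 6.34 for Ulk1, 5.17 for Atg9b and 3.14 for Atg9a, and lay between 1.89 and 2.3 for the other 5 genes. The plot of levels by library shows the range of each gene. Levels are CPM scaled by TMM, a factor that corrects for RNA composition. Per kilobase of exon in the GENCODE vM21 gene model, Ulk1 was the most abundant of the 10 at day 0, at 23.4 ± 0.655 CPM per kb in shBeclin1 and 22.7 ± 1.45 CPM per kb in shNT libraries (SD, n = 2 each). Wipi2 was the most abundant at day 4, at 12.3 ± 0.16 CPM per kb in shBeclin1 and 13.1 ± 0.109 CPM per kb in shNT libraries. Wipi1 was the most abundant in both cultures of day 10, at 25.9 ± 1.27 CPM per kb in shBeclin1 and 17 ± 0.641 CPM per kb in shNT libraries of the CM culture. Atg9b was the least abundant in all groups, between 0.109 and 0.563 CPM per kb, with 2 to 38 counts in a library.

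**Figure D1:**
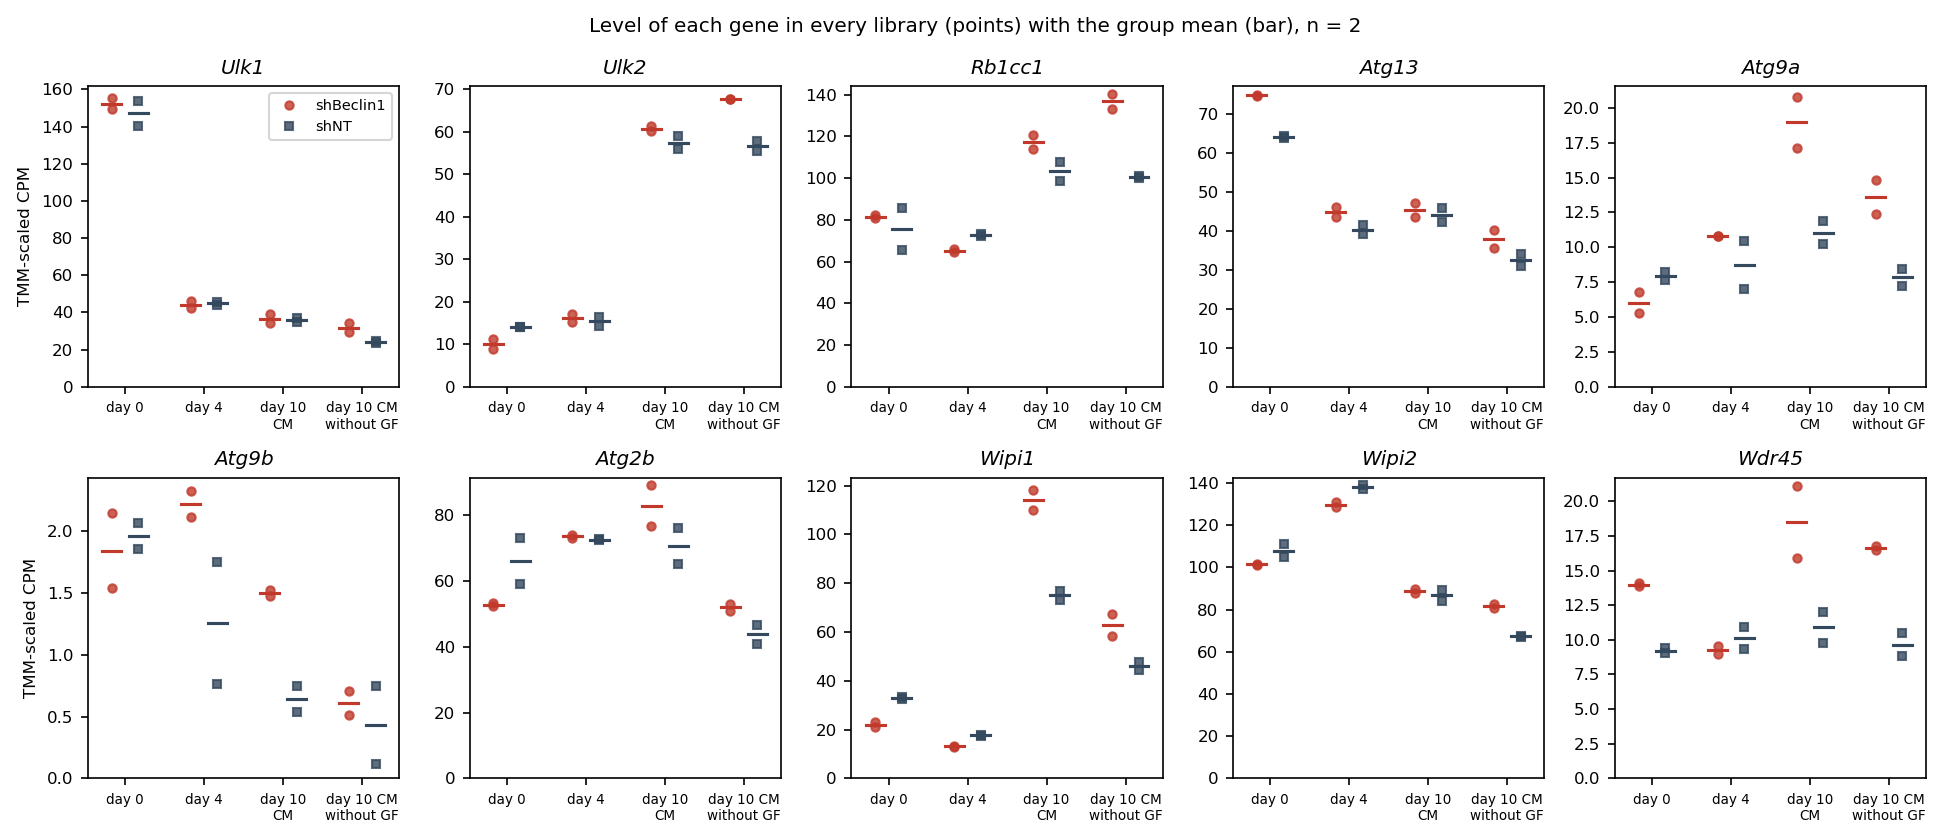
TMM-scaled CPM (vertical axis, from 0, scaled per gene) of the 10 genes in each of the 16 libraries, with shBeclin1 (circles) left of shNT (squares) at each day and culture and bars at the mean of 2 libraries. Ulk1 is high at day 0 only, Ulk2 and Wipi1 are highest at day 10, and Wipi1 libraries with shBeclin1 lie below those with shNT at day 0 and day 4 and above them at day 10.

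The kinase genes Ulk1 and Ulk2 exchanged places over time. Ulk1 lies on chromosome 5 at 110784488 to 110810097 (GRCm38, minus strand, 27 merged exons) and Ulk2 on chromosome 11 at 61775649 to 61855073 (minus strand, 27 merged exons). Ulk1 stood at 155 and 149 CPM in shBeclin1 and at 154 and 140 CPM in shNT libraries of day 0. At day 4 it stood at 46 and 42.3 CPM in shBeclin1 and at 45.7 and 44.1 CPM in shNT libraries. Both hairpins thus had Ulk1 levels at day 4 below every day 0 library, with a fold of 0.29 in shBeclin1 (log2 -1.79, SE 0.08, adjusted p = 1.77e-21) and 0.305 in shNT (log2 -1.71, SE 0.08, adjusted p = 1.08e-20). Its day 10 levels were lower again, 34.1 to 39 CPM in the CM culture and 23.4 to 34.3 CPM without GF. The step from day 4 to day 10 CM was small, at log2 -0.27 in shBeclin1 (adjusted p = 0.00454) and -0.33 in shNT (adjusted p = 0.000717). With total counts as the scaling it was not called, at -0.11 and -0.13 (adjusted p = 0.243 and 0.16). Nor was it called in shBeclin1 without CM replicate 2 (-0.18, adjusted p = 0.129) or without day 4 replicate 1 (-0.21, adjusted p = 0.0706), or in shNT without CM replicate 1 (-0.23, adjusted p = 0.0547).

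Ulk2 moved the other way, with its main rise after day 4. It stood at 8.92 and 11.3 CPM in shBeclin1 and at 14.1 CPM in both shNT libraries of day 0, and at 15.3 and 17.1 CPM in shBeclin1 and 14.4 and 16.4 CPM in shNT libraries of day 4. At day 10 CM it stood at 60.2 and 61.3 CPM in shBeclin1 and at 56 and 58.9 CPM in shNT libraries, and without GF at 67.7 and 67.8 CPM in shBeclin1 and at 55.5 and 57.9 CPM in shNT libraries. All 8 day 10 libraries lay above all 8 earlier ones. Ulk2 already rose 1.6-fold from day 0 to day 4 in shBeclin1 libraries (log2 0.68, SE 0.12, adjusted p = 2.62e-06), and was not called in shNT libraries (log2 0.13, adjusted p = 0.318). Ulk2 rose 3.74-fold from day 4 to day 10 CM in shBeclin1 and 3.73-fold in shNT libraries (adjusted p = 3.33e-20 and 8.78e-20). Per kilobase of exon, the Ulk1 level over that of Ulk2 was 16 and 12.2 in shBeclin1 and 10.1 and 9.16 in shNT libraries of day 0, 2.77 and 2.28 in shBeclin1 and 2.93 and 2.47 in shNT libraries of day 4. At day 10 the ratio was under 1 in every library, 0.596 and 0.513 in shBeclin1 and 0.57 and 0.577 in shNT libraries of the CM culture, and 0.388 to 0.466 without GF.

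**Figure D2:**
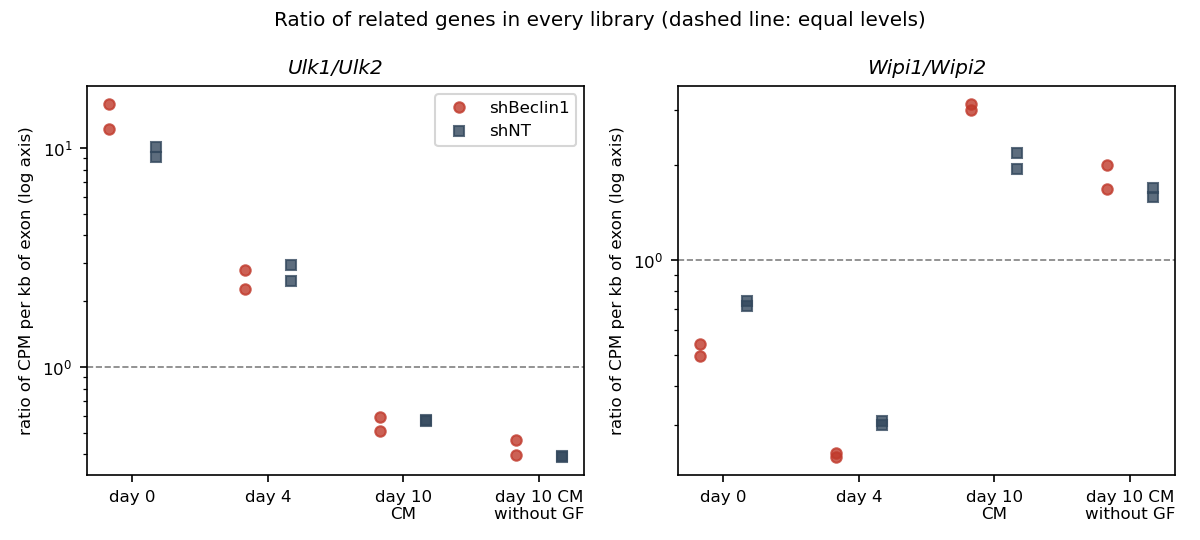
Ratio of CPM per kilobase of exon (vertical log axis) of Ulk1 to Ulk2 and of Wipi1 to Wipi2 in each library, with shBeclin1 (circles) left of shNT (squares) at each day and culture; the dashed line marks equal levels. Ulk1 exceeds Ulk2 in all libraries of day 0 and day 4 and falls below it at day 10, while Wipi1 is below Wipi2 at day 0 and day 4 and above it at day 10.

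Of the partners of the kinases, Atg13 fell by day 4 and Rb1cc1 rose between day 4 and day 10. The adaptor gene Atg13 (chromosome 2, 91674618 to 91710576) fell to 46.3 and 43.6 CPM in shBeclin1 libraries of day 4, against 74.8 and 75.1 CPM at day 0, and to 39.2 and 41.5 CPM in shNT libraries of day 4, against 64 and 64.5 CPM at day 0 (log2 -0.74 and -0.67, SE 0.08 each, adjusted p = 1.51e-10 and 2.95e-09). From day 4 to day 10 CM no change was called for Atg13 (adjusted p = 0.883 in shBeclin1 and 0.136 in shNT). The scaffold gene Rb1cc1 (chromosome 1, 6206197 to 6276648) had its highest levels at day 10. In shBeclin1 libraries it first fell by 0.32 on the log2 scale from day 0 to day 4 (adjusted p = 0.000808), and in shNT libraries that step was not called (log2 -0.05, adjusted p = 0.594). It rose to 121 and 114 CPM in shBeclin1 libraries of day 10 CM, against 66.2 and 64.4 CPM at day 4 (log2 0.84, SE 0.08, adjusted p = 1.85e-11). In shNT libraries it rose to 98.8 and 108 CPM, against 72.5 and 73.5 CPM at day 4 (log2 0.50, SE 0.08, adjusted p = 1.24e-06). The day 0 shNT libraries differed widely for Rb1cc1, at 65.6 and 85.6 CPM, and enclosed the shBeclin1 pair of 80.8 and 82.3 CPM. Exons of 4732440D04Rik, at 0.348 to 10.3 CPM, overlap 3.8% of the Rb1cc1 exon length on the opposite strand. From day 4 to day 10 CM 4732440D04Rik rose too (log2 3.17 in shBeclin1 and 3.33 in shNT), and its part in the Rb1cc1 counts was not tested.

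Of the lipid genes, Atg9a was highest at day 10 CM with shBeclin1 and Atg2b was lowest at day 10 without GF. Atg9a (chromosome 1, 75180860 to 75192196) stood at 5.27 and 6.8 CPM in shBeclin1 and 7.67 and 8.22 CPM in shNT libraries of day 0, and at 10.8 CPM in both shBeclin1 and 7.04 and 10.4 CPM in shNT libraries of day 4. At day 10 CM it stood at 20.8 and 17.1 CPM in shBeclin1 and 11.9 and 10.2 CPM in shNT libraries, and without GF at 12.4 and 14.9 CPM in shBeclin1 and 7.26 and 8.42 CPM in shNT libraries. The hairpins did not overlap in any of the 4 pairs of groups, with shBeclin1 lower at day 0 and higher in the other 3 pairs, but the differences at day 0 and day 4 were not called (adjusted p = 0.162 and 0.215). Exons of Gm29253 on the same strand overlap 31.8% of the Atg9a exon length, and Gm29253 itself was at 0 to 0.12 CPM. Exons of Ankzf1, at 22.9 to 59.2 CPM, overlap 0.798% of the Atg9a exon length on the opposite strand. Against shNT, Ankzf1 with shBeclin1 was at log2 -0.19 at day 0 and -0.31 at day 4. It was called higher with shBeclin1 at day 10 CM (log2 0.28) and without GF (log2 0.23). The part of Ankzf1 reads in the Atg9a counts was not tested. Atg9b (chromosome 5, 24384181 to 24392143), the other ATG9 gene, was highest at day 4 with shBeclin1, at 2.33 and 2.12 CPM, and lowest at day 10 without GF, at 0.513 and 0.708 CPM in shBeclin1 and 0.745 and 0.115 CPM in shNT libraries. Exons of Nos3, the endothelial nitric oxide synthase gene, overlap 7.45% of its exon length on the opposite strand, and how strand was handled in counting is not stated in the labels used here. Nos3 stood at 0.202 to 12.3 CPM over all libraries. It was higher with shBeclin1 than with shNT at day 4 (log2 1.39, adjusted p = 0.0496), and higher with CM than without GF in shBeclin1 (log2 1.51) and in shNT (log2 3.54). The log2 differences of Atg9b had the same sign, at 0.80, 1.28 and 0.64, of which the second was called. From day 4 on the signs over time differed. From day 4 to day 10 CM Nos3 rose, by log2 3.47 in shBeclin1 and 4.86 in shNT. Mean Atg9b went from 2.22 to 1.5 CPM in shBeclin1 and from 1.26 to 0.642 CPM in shNT. From day 4 to day 10 without GF, Nos3 rose (log2 1.97 in shBeclin1 and 1.32 in shNT) and Atg9b fell (-1.84 and -1.58). By hairpin, Nos3 at day 10 CM differed by less than its error (log2 0.00, SE 0.18). The part of Nos3 reads in the Atg9b counts was not tested.

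Atg2b (chromosome 12, 105616136 to 105685211) stood at 53.3 and 52.5 CPM in shBeclin1 and 59.1 and 73.1 CPM in shNT libraries of day 0, and between 72.5 and 74.1 CPM in all 4 libraries of day 4. At day 10 CM it stood at 89.2 and 76.8 CPM in shBeclin1 and 65.2 and 76.2 CPM in shNT libraries, and without GF at 51 and 53.1 CPM in shBeclin1 and 46.7 and 40.9 CPM in shNT libraries. The libraries without GF were below all of day 4. Exons of Gskip, at 11.7 to 18.9 CPM, overlap 2.85% of the Atg2b exon length on the opposite strand.

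Wipi1 had the widest range of the 10 genes and Wipi2, its closest relative among them, a narrow one. Wipi1 (chromosome 11, 109573331 to 109611967) stood at 21 and 23.1 CPM in shBeclin1 and 32.6 and 33.3 CPM in shNT libraries of day 0, and at 12.8 and 13.4 CPM in shBeclin1 and 17.9 and 17.2 CPM in shNT libraries of day 4. At day 10 CM it stood at 118 and 110 CPM in shBeclin1 and 73 and 77 CPM in shNT libraries, and without GF at 58.2 and 67.5 CPM in shBeclin1 and 47.9 and 44.6 CPM in shNT libraries. No 2 neighbouring groups in the order of its levels overlapped. Wipi1 fell at day 4 against day 0 (log2 -0.75 in shBeclin1 and -0.91 in shNT, adjusted p = 5.79e-08 and 1.67e-10). It then rose from day 4 to day 10 CM, 8.73-fold in shBeclin1 and 4.27-fold in shNT libraries (log2 3.13 and 2.09, SE 0.09 each, adjusted p = 3.73e-27 and 7.47e-22), and without GF 4.81-fold in shBeclin1 and 2.63-fold in shNT libraries.

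Wipi2 (chromosome 5, 142627698 to 142670588), whose product recruits the ATG8 conjugation machinery, was highest at day 4, at 128 and 131 CPM in shBeclin1 and 139 and 137 CPM in shNT libraries. At day 10 CM it had fallen to 89.8 and 88 CPM in shBeclin1 and 89.4 and 84.2 CPM in shNT libraries (log2 -0.54 and -0.67 against day 4, SE 0.06 each, adjusted p = 6.42e-10 and 3.81e-12). Per kilobase of exon, the Wipi1 level over that of Wipi2 was 0.496 and 0.542 in shBeclin1 and 0.744 and 0.717 in shNT libraries of day 0, and 3.14 and 3 in shBeclin1 and 1.95 and 2.19 in shNT libraries of day 10 CM. Wdr45 (chromosome X, 7714333 to 7728206) stayed between 8.82 and 12 CPM in all 8 shNT libraries. In shBeclin1 libraries it stood at 13.9 and 14.1 CPM at day 0, at 9.56 and 8.96 CPM at day 4, at 21.1 and 15.9 CPM at day 10 CM and at 16.5 and 16.8 CPM without GF. Its shBeclin1 levels were thus above all shNT libraries at day 0 and day 10 but not at day 4. Exons of Gm45208, at no more than 0.0697 CPM, overlap 24.7% of the Wdr45 exon length.

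Counted over the 10 genes, 4 rose and 5 fell from day 0 to day 4 in shBeclin1 libraries, against 1 and 3 in shNT libraries, where 35.5% and 32.3% of all tested genes rose and fell in shBeclin1 and 34.3% and 32.6% in shNT. From day 4 to day 10 CM, 5 rose and 2 fell in shBeclin1 and 3 rose and 2 fell in shNT, where 72.4% of all genes were called in shBeclin1 and 70% in shNT, and 37.3% and 35.1% of all genes rose and fell in shBeclin1 and 36.8% and 33.2% in shNT. From day 4 to day 10 without GF, 5 rose and 5 fell in shBeclin1 and 3 rose and 5 fell in shNT, where 73.8% of all genes were called in shBeclin1 and 68.7% in shNT, and 38% and 35.8% of all genes rose and fell in shBeclin1 and 35.7% and 33% in shNT. The genes that rose to both late cultures in both hairpins were Ulk2, Rb1cc1 and Wipi1. In the step to day 10 without GF, 52% of called genes were higher at day 10 in shNT, or 62.4% with total counts as the scaling. Total counts also moved the median log2 fold of all genes, to -0.116 for day 4 against day 0 in shNT (0.001 with TMM). For the steps to day 10 they moved that median to between 0.177 and 0.273 (0.018 to 0.071 with TMM). With total counts, 5 of the 10 genes rose and 1 fell from day 4 to day 10 CM in shNT. The share of all genes beside that count is not given here. Under that scaling the Atg13 change from day 4 to day 10 without GF in shBeclin1 turned from -0.24 (adjusted p = 0.00808) to 0.01 (adjusted p = 0.963), and in shNT it was not called (-0.09 in place of -0.30, adjusted p = 0.345). The Atg13 call in shBeclin1 also ended without day 10 replicate 1 or day 4 replicate 1 (adjusted p = 0.139 and 0.0737), with no filter on low counts (adjusted p = 0.107) and by DESeq2 (adjusted p = 0.065). The Atg9a rise without GF in shBeclin1 (log2 0.34) ended without replicate 2 of that group (0.20, adjusted p = 0.327) or either day 4 replicate (adjusted p = 0.123 and 0.141), and by DESeq2 (adjusted p = 0.0632). The Atg9b fall without GF in shNT (log2 -1.58) ended without day 4 replicate 2 (-0.86, adjusted p = 0.275) or day 10 replicate 2 (-0.71, adjusted p = 0.253), and was -3.38 without day 10 replicate 1.

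The central question of the study is what Beclin1 knockdown changes. In undifferentiated cells the 10 genes went both ways. Wipi1 fell by 0.58 on the log2 scale (SE 0.09, adjusted p = 3.37e-05), a call that held without any of the 4 libraries. Ulk2 fell by 0.48 (SE 0.12, adjusted p = 0.00546) and Atg2b fell by 0.32 (SE 0.09, adjusted p = 0.0185), while Wdr45 rose 1.52-fold (log2 0.60, SE 0.15, adjusted p = 0.00521) and Atg13 rose 1.17-fold (log2 0.22, SE 0.08, adjusted p = 0.0478). So 2 were higher and 3 lower, where 5.79% and 7.55% of all 19141 genes were higher and lower (of all calls, 43.4% were higher, or 23.9% when scaled by total counts). Their median log2 fold was -0.09, against -0.01 over all genes. Several calls were lost when a single library was left out. Ulk2 was not called once shBeclin1 replicate 1 was left out (log2 -0.32). Wdr45 was not called once shBeclin1 replicate 2 was left out, with little change in size (log2 0.59). Atg2b lost its call without shNT replicate 2 (-0.16, adjusted p = 0.265) and, with little change in size, without either shBeclin1 library (adjusted p = 0.0931 for replicate 1 and 0.134 for replicate 2). In a fit of the libraries compared alone, Ulk2 (adjusted p = 0.0681) and Atg2b (adjusted p = 0.0875) were not called. Atg13 lost its call whichever of the 4 libraries was left out, though its log2 fold stayed at 0.22 to 0.23. It was not called by DESeq2 either (adjusted p = 0.114). All genes called numbered 2555, but 1160 without shBeclin1 replicate 1 and 920 without shBeclin1 replicate 2.

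At day 4 a single gene of the 10 was called. Wipi1 fell by 0.43 (SE 0.11, adjusted p = 0.00344), against 10.1% of all genes lower and 10.7% higher (51.5% of calls higher, or 38.1% with total counts). That Wipi1 call held in each leave-one-out fit (adjusted p up to 0.0441). All genes called numbered 3975, but between 2514 and 2644 when any of the 4 libraries was left out, and without shNT replicate 2 a total of 3 of the 10 genes were called. Ulk1 (adjusted p = 0.892), Ulk2 (adjusted p = 0.703) and Wdr45 (adjusted p = 0.623) overlapped between hairpins. The other 6 genes were not called either, with adjusted p from 0.14 for Atg9b to 0.939 for Atg2b. Over the 10 genes the median log2 fold was 0.00, and 0.02 over all genes. The summed level of 5 primitive streak and early mesoderm markers was 1820 CPM in both shBeclin1 libraries against 747 to 756 CPM in shNT libraries at this day.

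At day 10 CM, 5 of the 10 genes were higher with shBeclin1 and none was lower by edgeR or DESeq2, where 19.2% of all genes were higher and 19.1% lower (50.1% of calls higher, or 36.7% with total counts). Wipi1 rose 1.52-fold (log2 0.61, SE 0.07, adjusted p = 1.19e-08), Atg9a 1.71-fold (log2 0.77, SE 0.15, adjusted p = 4.64e-05) and Wdr45 1.68-fold (log2 0.75, SE 0.14, adjusted p = 2.22e-05), and these calls held in every alternative run. Atg2b rose 1.18-fold (adjusted p = 0.034), but its log2 fold was 0.10 when shNT replicate 1 was left out (adjusted p = 0.56), and 0.12 when shBeclin1 replicate 1 was (adjusted p = 0.402), against 0.23 with all libraries. It was not called by DESeq2 (adjusted p = 0.074), with total counts (adjusted p = 0.222) or with a replicate block (adjusted p = 0.0606). Atg9b rose 2.28-fold (SE 0.43 on the log2 scale, adjusted p = 0.0276), from 23 and 26 counts in shBeclin1 libraries against 17 and 9 counts in shNT libraries. That call was lost whichever library was left out (adjusted p 0.0699 to 0.142) and by DESeq2 (adjusted p = 0.0731). No change was called for the kinase complex genes Ulk1, Ulk2 and Atg13 (log2 0.03 to 0.08, SE 0.08 each) or for Wipi2 (0.03, SE 0.06), and Rb1cc1 was just outside the threshold (log2 0.18, SE 0.08, adjusted p = 0.0564). None of the 10 genes had a negative log2 fold. The median log2 fold was 0.21 over the 10 genes and -0.02 over all.

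Without GF, 9 of the 10 genes were higher with shBeclin1 and none lower by edgeR or DESeq2, or at an unadjusted p under 0.05, where 27.3% of all genes were higher and 27.3% lower. Atg9a rose 1.74-fold (log2 0.80, SE 0.16, adjusted p = 5.45e-05), Wdr45 1.73-fold (log2 0.79, SE 0.14, adjusted p = 9.4e-06), Wipi1 1.36-fold (log2 0.45, SE 0.08, adjusted p = 8.25e-06), Rb1cc1 1.36-fold (log2 0.44, SE 0.08, adjusted p = 7.64e-06), Ulk1 1.32-fold (log2 0.40, SE 0.09, adjusted p = 0.000264) and Wipi2 1.21-fold (log2 0.28, SE 0.06, adjusted p = 0.000306). For these 6 genes and for Ulk2, Atg13 and Atg2b, both shBeclin1 libraries lay above both shNT libraries. The share of all genes with such a separation was not counted. Atg9b overlapped between hairpins (adjusted p = 0.438). The smaller rises lost their calls when certain single libraries were left out. Ulk2 (log2 0.26) was not called without shNT replicate 1 (0.22, adjusted p = 0.0711). Atg13 (log2 0.22) was not called without shBeclin1 replicate 2 (0.12, adjusted p = 0.334) or shNT replicate 1 (0.15, adjusted p = 0.233), or in a fit of the libraries compared alone (adjusted p = 0.0614). Atg2b (log2 0.25) was not called without shNT replicate 2 (0.15, adjusted p = 0.309) or shBeclin1 replicate 2 (0.22, adjusted p = 0.121), or with a replicate block (adjusted p = 0.0536). The median log2 fold was 0.42 over the 10 genes and -0.01 over all.

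**Figure D3:**
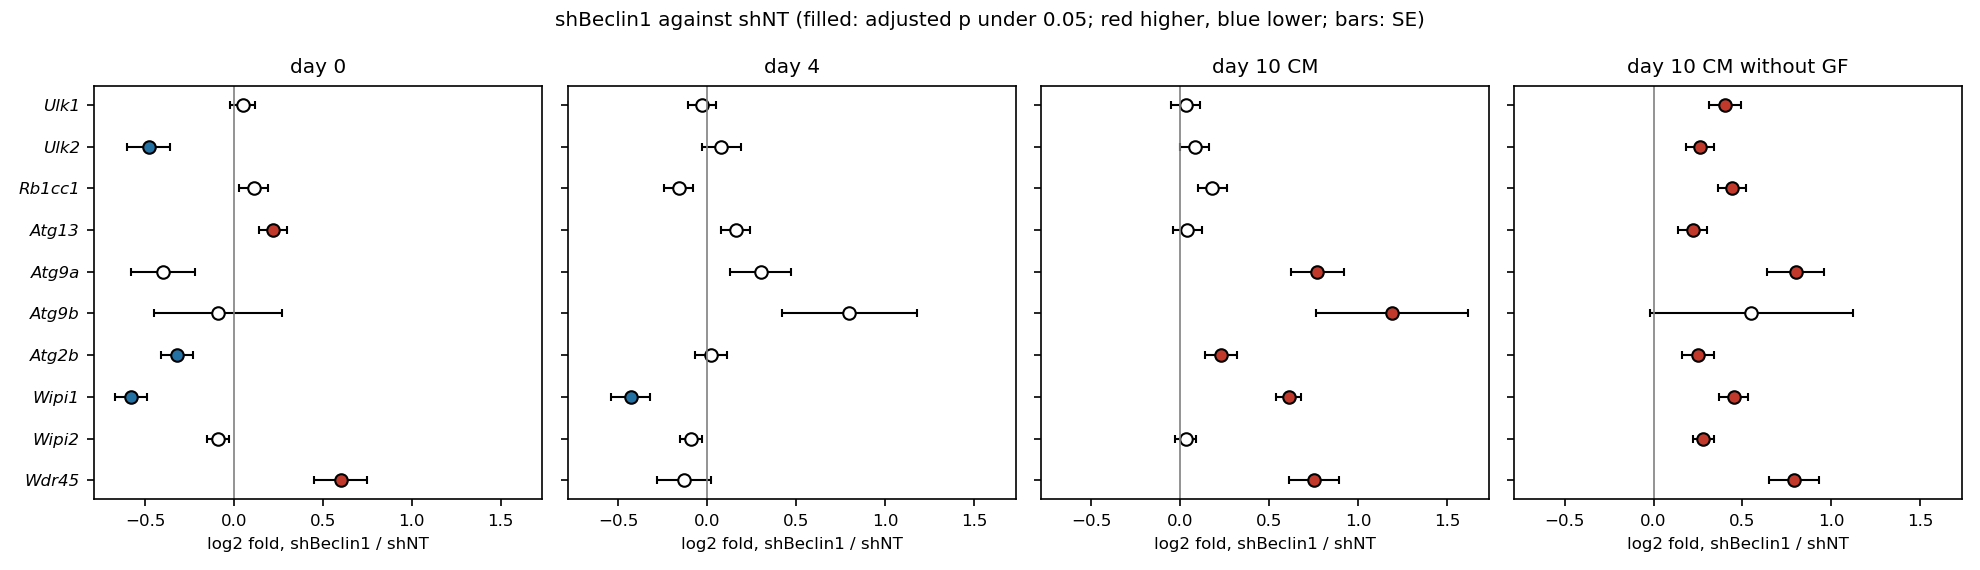
Log2 fold of shBeclin1 over shNT (horizontal axis, shared by the panels) for the 10 genes at day 0, day 4, day 10 CM and day 10 without GF, with standard errors as bars; filled points have an adjusted p under 0.05, red if higher and blue if lower. Blue points occur at day 0 and day 4 and red points on 9 of 10 genes at day 10 without GF.

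Marker genes of several cell types moved with the hairpin in both late cultures. The sum of 5 primitive streak and early mesoderm markers was 4.21 to 5.41 CPM in shBeclin1 against 259 to 261 CPM in shNT libraries at day 10 CM, and 0.399 to 0.556 CPM in shBeclin1 against 30 to 30.8 CPM in shNT libraries without GF. Of these 5 streak and mesoderm markers, 1 was at 0 in both shNT libraries at day 10 CM. Without GF, 2 were at 0 in both shNT libraries and 1 in both shBeclin1 libraries. The sum of 5 pluripotency markers was 43.3 to 45.7 CPM in shBeclin1 against 139 to 150 CPM in shNT libraries at day 10 CM. Without GF it was 26.4 to 32.9 CPM in shBeclin1 against 226 to 244 CPM in shNT libraries. Besides the cardiomyocyte list, the sum of 4 smooth muscle markers was 1960 to 2070 CPM in shBeclin1 against 129 to 155 CPM in shNT libraries at day 10 CM, and 1640 to 2000 CPM in shBeclin1 against 221 to 239 CPM in shNT libraries without GF. The sum of 4 blood markers was 155 to 187 CPM in shBeclin1 against 22 to 26.8 CPM in shNT libraries at day 10 CM and 197 to 306 CPM in shBeclin1 against 19.3 to 25.1 CPM in shNT libraries without GF. The sum of 4 neural markers was 7.27 to 8.43 CPM in shBeclin1, with 1 of them at 0, against 41.4 to 45.4 CPM in shNT libraries at day 10 CM, and 27.9 to 31.9 CPM in shBeclin1 against 389 to 390 CPM in shNT libraries without GF. Their part in the changes of the 10 genes was not tested.

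The effect of the knockdown differed between time points for some genes by a test of the difference itself. Wipi1 was lower with shBeclin1 at day 0 and day 4 and higher at day 10 CM. The log2 effect at day 10 CM exceeded that at day 0 by 1.19 (SE 0.12, adjusted p = 3.07e-10) and that at day 4 by 1.03 (SE 0.13, adjusted p = 7.1e-08), and both calls held in all leave-one-out fits. For Atg9a the effect at day 10 CM exceeded that at day 0 by 1.17 (SE 0.24, adjusted p = 0.000197), for Atg2b by 0.56 (0.23 at day 10 CM and -0.32 at day 0, SE 0.13, adjusted p = 0.00117) and for Ulk2 by 0.56 (0.08 at day 10 CM and -0.48 at day 0, SE 0.14, adjusted p = 0.00273), the last not called without day 0 shBeclin1 replicate 1 (0.40, adjusted p = 0.0717). In all, the signed log2 effect of 4 of the 10 genes was higher at day 10 CM than at day 0 and that of none was lower by edgeR or DESeq2, or at an unadjusted p under 0.05, where 27.6% of all genes were called, 14.6% higher and 13% lower. Against day 4, it was higher at day 10 CM for Wipi1, Wdr45 and Rb1cc1, the last not called in 5 of 8 leave-one-out fits (adjusted p up to 0.169), where 26.1% of all genes were called and 12.2% in that direction. Between day 4 and day 0 the signed effect was higher at day 4 for Ulk2 (0.08 at day 4 and -0.48 at day 0) and lower for Wdr45 (-0.13 at day 4 and 0.60 at day 0), where 7.93% of all genes were called higher and 6.89% lower. Both of these calls were lost in 3 of 8 leave-one-out fits (adjusted p up to 0.164 for Ulk2 and 0.115 for Wdr45). Between the late cultures the signed effect of knockdown was lower with CM than without GF for Ulk1, by -0.37 (SE 0.12, adjusted p = 0.0187), and for Wipi2, by -0.25 (SE 0.09, adjusted p = 0.0285), where 34.4% of all genes were called and 18.2% in that direction. The Ulk1 call ended in 4 of 8 leave-one-out fits (adjusted p up to 0.137) and the Wipi2 call in 6 of 8 (up to 0.103).

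Between the late cultures themselves, most called genes of the 10 were higher with CM than without GF. In shBeclin1 libraries 5 were higher and 1 lower, where 37% of all genes were called and 20.3% of all genes were higher and 16.7% lower (54.9% of calls higher, or 42.2% with total counts). In shNT libraries 6 were higher and none lower by edgeR or DESeq2, or at an unadjusted p under 0.05, where 52.8% of all genes were called and 26.9% were higher and 25.9% lower. Wipi1 was 1.81-fold higher in shBeclin1 and 1.62-fold higher in shNT libraries (log2 0.86 and 0.70, SE 0.07 and 0.08, adjusted p = 5.32e-12 and 1.09e-09). Atg2b was 1.59-fold higher in shBeclin1 and 1.61-fold higher in shNT libraries (log2 0.67 and 0.69, adjusted p = 3.98e-07 and 1.93e-07). Ulk1 (log2 0.57, adjusted p = 1.03e-06) and Wipi2 (log2 0.37, adjusted p = 6.41e-06) were called higher in shNT libraries, and in shBeclin1 libraries their differences were 0.20 (adjusted p = 0.0625) and 0.12 (adjusted p = 0.142). Rb1cc1 was lower with CM in shBeclin1 libraries (log2 -0.22, adjusted p = 0.0192), a call that ended without CM replicate 2 (-0.18, adjusted p = 0.166) or replicate 1 without GF (-0.18, adjusted p = 0.112). Of the smaller rises in shBeclin1, Atg13 (log2 0.26), Atg9a (0.47) and Atg9b (1.28) were not called without CM replicate 1 (adjusted p = 0.134, 0.169 and 0.0638) or without replicate 1 of the culture without GF (adjusted p = 0.17, 0.0921 and 0.112). In each of these 2 fits 3 of the 10 genes were called, of which 2 in the second fit were among those called with all libraries. Atg9b was not called without CM replicate 2 either (adjusted p = 0.0832) or by DESeq2 (adjusted p = 0.0629), and Atg13 not with total counts (adjusted p = 0.102). The Atg9a rise in shNT (log2 0.50) ended without CM replicate 1 (0.39, adjusted p = 0.129) or replicate 1 without GF (0.40, adjusted p = 0.106). In shNT libraries, the sum of 4 endothelial markers was 583 to 588 CPM with CM against 58.6 to 61.3 CPM without GF. That of 4 neural markers was 41.4 to 45.4 CPM with CM against 389 to 390 CPM without GF. Their part in these differences was not tested.

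**Figure D4:**
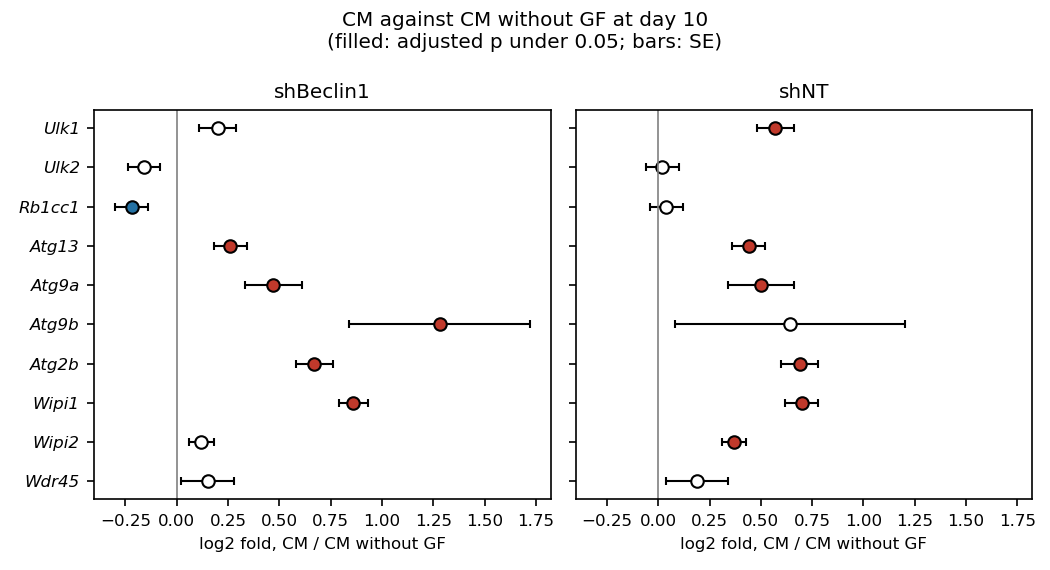
Log2 fold of day 10 CM over day 10 without GF (horizontal axis) for the 10 genes in shBeclin1 (left) and shNT (right) libraries, with standard errors as bars; filled points have an adjusted p under 0.05, red if higher and blue if lower. Wipi1 and Atg2b lie between 0.67 and 0.86 in both hairpins, and Ulk2 is near 0 in shNT libraries.

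Other genes of the pathway are set beside the 10 here, and their counts read against the 13.3% of all genes called at day 0, 20.8% at day 4, 38.4% at day 10 CM and 54.7% without GF. Of 5 further genes of initiation and lipid transfer (Atg101, Atg2a, Wdr45b, Vmp1 and Tmem41b), none was called at day 0 by edgeR or DESeq2 (0 at an unadjusted p under 0.05), 1 was higher at day 4, 2 at day 10 CM and 2 without GF, with none lower. Vmp1, a scramblase gene, averaged 66.9 CPM with shBeclin1 and 55 CPM with shNT at day 10 CM (adjusted p = 0.00222), and 87.7 CPM with shBeclin1 and 64.1 CPM with shNT without GF (adjusted p = 2.06e-06). Of 8 genes of the Beclin1 lipid kinase complexes, Becn1 and Atg14 were lower at day 0, Becn1 at day 4 and day 10 CM, and Becn1 and Pik3c3, the catalytic subunit, without GF. None was higher at day 0 or day 4 by edgeR or DESeq2 (1 at day 4 at an unadjusted p under 0.05), 1 was higher at day 10 CM and 3 without GF. Uvrag, a Beclin1 partner, was the one at day 10 CM, with a mean of 36.2 CPM for shBeclin1 and 22.7 CPM for shNT (log2 0.68, adjusted p = 5.03e-07). Of 15 genes of ATG8 proteins and their conjugation, none was called at day 0 by edgeR or DESeq2 (1 higher and 1 lower at an unadjusted p under 0.05), 3 were higher and 2 lower at day 4, 4 higher and 0 lower at day 10 CM, and 3 higher and 2 lower without GF. Of 6 receptor genes, 2 were higher and 1 lower at day 0, 1 was lower at day 4, 4 were higher at day 10 CM and 5 were higher without GF. By DESeq2, 1 of the initiation list was higher at day 10 CM, 2 of the ATG8 list were higher and 1 lower at day 4, and 1 receptor was higher and 1 lower at day 0.

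Upstream of the ULK kinases, 15 genes of the AMPK and mTORC1 pathways gave 1 higher and 1 lower at day 0, 3 higher and 1 lower at day 4, 7 higher and 0 lower at day 10 CM, and 9 higher and 2 lower without GF. By DESeq2 the counts were 0 higher and 1 lower at day 0, 1 higher and 1 lower at day 4, 7 higher and 0 lower at day 10 CM, and 8 higher and 1 lower without GF. Prkaa2, a catalytic subunit of AMPK, averaged 135 CPM with shBeclin1 and 19.6 CPM with shNT at day 10 CM (log2 2.80, SE 0.12, adjusted p = 1.99e-14) and 87.6 CPM with shBeclin1 and 21.9 CPM with shNT without GF (log2 2.00, SE 0.12, adjusted p = 4.71e-12). Its regulatory partner Prkab2 averaged 136 CPM with shBeclin1 and 59.4 CPM with shNT at day 10 CM (log2 1.20, adjusted p = 3.53e-13). Of 5 transcription factor genes known to act on autophagy genes, 0 were higher and 1 lower at day 0, 0 higher and 2 lower at day 4, 3 higher and 1 lower at day 10 CM, and 4 higher and 1 lower without GF. DESeq2 called 0 of them at day 0, where 3 were lower at an unadjusted p under 0.05. Foxo1 was lower with shBeclin1 at all 4 points by edgeR, with a mean of 35.6 CPM for shBeclin1 and 66.3 CPM for shNT at day 10 CM (log2 -0.90, adjusted p = 2.61e-11). Tfeb was higher without GF, with a mean of 7.98 CPM for shBeclin1 and 2.06 CPM for shNT (log2 1.95, SE 0.22, adjusted p = 2.05e-09). Mitf was higher at day 10 CM, with a mean of 23.4 CPM for shBeclin1 and 7.01 CPM for shNT (log2 1.72, SE 0.22, adjusted p = 2.99e-05).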

How the data were processed

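RNA was sequenced from 16 libraries in 8 groups of 2. Per the labels, TRIzol RNA went through rRNA depletion and a kit for stranded mRNA libraries, while the molecule tag reads polyA RNA. The authors deposited raw counts per gene symbol. Per the submitters' processing notes, Trimmomatic 0.36, featureCounts, Subread 1.5.1 and SAMtools were used with mm10; which aligner, annotation and strand option were used is not given in the sources.

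The 10 genes and the lists were chosen with earlier results of these data known. Of 54052 entries, filterByExpr kept 19141. Counts were fitted in R 4.3.3 with edgeR 4.0.16 and TMM factors of 0.884 to 1.08. The robust quasi-likelihood model had 1 mean per group, no batch or block term and 8 residual degrees of freedom. It was tested on simulated counts for the hairpins at day 0, with 50 genes changed at each fold. These counts were drawn from the fitted spread of each gene, with all groups at the day 0 shNT mean apart from the changed genes. Far fewer genes were changed there than were called at day 0. Genes of low level, Atg9b among them, were not changed, so the simulation does not speak to their recovery. There 7.14% of calls were false. Recovered were 84% of genes at a fold of 1.5, 74% at 0.667, 96% at 2 and 84% at 0.5. P-values were adjusted by Benjamini-Hochberg over all genes tested and called under 0.05. The standard error is the log2 fold over the root of F. Replicate counts differed beyond sampling noise, at a chi-square over degrees of freedom of 1.42 to 7.91. Exon lengths, positions and overlaps are from GENCODE vM21 (GRCm38) and promoters from RefSeq. The alternatives were other scalings, other low-count filters, DESeq2 1.42.0, a replicate block, fits of the compared libraries alone and leaving out each library.

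By rule the text names Becn1, the 10 genes, genes whose exons overlap theirs, at most 3 called genes per pathway list and knockdown comparison, and, for the 3 genes of widest range, the 3 genes of mean log2 CPM of at least 2 with the highest correlation, of which 1 is not reported here. The other genes of the initiation list were named to state its content.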

Additional observations from a re-analysis of the deposited data

Results flagged for a closer look

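For some of the 10 genes the effect of the hairpin differed between time points or cultures by a test of that difference (edgeR, adjusted over all genes). Between day 4 and day 0 the log2 effect of shBeclin1 differed by 0.55 for Ulk2 (0.08 at day 4 and -0.48 at day 0, SE 0.16, adjusted p = 0.015) and by -0.73 for Wdr45 (-0.13 at day 4 and 0.60 at day 0, SE 0.21, adjusted p = 0.0159). The Ulk2 difference was not called without day 0 shBeclin1 replicate 1 (0.39, adjusted p = 0.164), day 4 shNT replicate 1 (adjusted p = 0.101) or day 4 shBeclin1 replicate 2 (adjusted p = 0.0949). The Wdr45 difference was not called without day 4 shNT replicate 2 (-0.62, adjusted p = 0.115), day 4 shBeclin1 replicate 2 (adjusted p = 0.0675) or day 0 shBeclin1 replicate 2 (adjusted p = 0.05).

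Between day 10 CM and day 0 the difference was 1.19 for Wipi1 (0.61 and -0.58), 1.17 for Atg9a (0.77 and -0.40), 0.56 for Atg2b (0.23 and -0.32) and 0.56 for Ulk2 (0.08 and -0.48). Between day 10 CM and day 4 it was 1.03 for Wipi1 (0.61 and -0.43), 0.88 for Wdr45 (0.75 and -0.13, SE 0.21, adjusted p = 0.00115) and 0.35 for Rb1cc1 (0.18 and -0.16, SE 0.11, adjusted p = 0.0206), the last not called in 5 of 8 leave-one-out fits (adjusted p up to 0.169). Between day 10 CM and day 10 without GF it was -0.37 for Ulk1 (0.03 and 0.40) and -0.25 for Wipi2 (0.03 and 0.28).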

How the results depend on the processing

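The calls of Wipi1 under knockdown kept their direction and side of the threshold in all alternatives run, as did those of Atg9a and Wdr45 at day 10. With total counts as the scaling, Atg13 from day 4 to day 10 without GF in shBeclin1 turned to 0.01. DESeq2 called 3 of the 10 genes at day 10 CM in place of 5. Fits of the compared libraries alone called 1241 genes, 2 of the 10 among them, at day 0, 3 of the 10 at day 4, and 1 of the 10 for the difference of effects between day 4 and day 0. In leave-one-out fits the calls over all genes numbered 920 to 3011 at day 0 and 2514 to 2644 at day 4. Calls among the 10 genes numbered 2 to 4 at day 0, 1 to 3 at day 4, 3 to 5 at day 10 CM, 3 to 6 for CM against CM without GF in shBeclin1, 0 to 3 for the difference between day 4 and day 0, and 0 to 3 for that between the late cultures. Counts of the 10 genes in alternative fits given without the share of all genes are not read as results about these genes. Where no cause is given above, the cause was not tested.

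The labels number replicates alike in all groups, but replicate differences correlated between hairpins at only -0.022 to 0.022 across genes. That shows no pairing of libraries by number. It cannot exclude one, because sampling noise in genes of low count may hide a shared part. A replicate block ended the calls of Atg13 at day 0 (0.22, adjusted p = 0.0802), Atg2b at day 10 CM (0.24, adjusted p = 0.0606) and Atg2b without GF (0.25, adjusted p = 0.0536), and no other call of the 10 genes. Depth limits Atg9b most, at 2 to 38 counts in a library.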

Other observations

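Genes that followed the courses of the 3 most variable genes were looked up by the Pearson correlation of log2 CPM over the 16 libraries, which share their stages and so are not independent points. Among 10825 genes compared, those most like Wipi1 included Mtmr3 (r = 0.9864) and Ssc5d (r = 0.9829). Mtmr3 encodes a phosphatase of the lipid that WIPI proteins bind, and stood at 134 CPM in shBeclin1 and 116 CPM in shNT libraries of day 10 CM. Closest to Ulk2 were Ptprd (r = 0.996), Prrg1 (r = 0.9954) and Loxl3 (r = 0.9928). Closest to Ulk1 were Rest (r = 0.9933), Pck2 (r = 0.9909) and Klf4 (r = 0.9877), the last a transcription factor of pluripotent cells at 159 CPM in shBeclin1 and 207 CPM in shNT libraries of day 0. Among the 10 genes themselves, the highest correlation was between Ulk1 and Atg13 (r = 0.945) and the lowest between Ulk1 and Ulk2 (r = -0.799).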
